A study of Mus musculus with 12 samples.

Results

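The genes described here encode the proteins of the mitochondrial ribosome, and they were chosen by name: a gene was a member if its symbol starts with Mrpl or Mrps followed by a number and if the platform's annotation gives it a probe set of its own. Of the 18193 mouse genes with such a probe set on the array, 76 were members, 47 named Mrpl and 29 named Mrps. Where a member has several such probe sets, the brightest by mean log2 signal over the 12 arrays stands for it. By their known place in the ribosome, 49 members belong to the large subunit, among them Mrps18a and Mrps30 in spite of their names, and 26 to the small subunit. Mrps36 belongs to neither subunit: its protein is now known as a part of the 2-oxoglutarate dehydrogenase complex.

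The study asked how mutant forms of integrin-linked kinase (ILK), an adaptor and kinase that joins integrins to the cytoskeleton, act on the mouse heart. Arrays of 3 ILKR211A Tg, 3 ILKS343D Tg and 6 WT hearts were compared. The transgenic mice carry human ILK with the mutation in their name, described in the methods as over-expressed in the heart only, and the WT mice were littermates without a transgene. All mice are labelled C57BL/6 and 8 to 9 weeks old, each heart was hybridized to 1 Affymetrix Mouse MOE 430 2.0 array, and neither the promoter of the transgenes nor the number of founder lines is given in the sources used here. One label names the left ventricle and the others name the heart. Replicate numbers of the WT hearts start over once, which divides them into a first and a second control set of 3 hearts each. Hearts numbered 1 to 6 are the ILKS343D Tg mice and the first set, hearts numbered 7 to 12 are the ILKR211A Tg mice and the second set, and no source says which line a set belongs to. The labels name no surgery, although the methods describe arrays from hearts with and without infarction, so no comparison by infarction was made. Separate hearts were taken as replicates.

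Mitochondria hold their own small genome, and the mitochondrial ribosome translates only the mRNAs of that genome, all of which encode core subunits of the respiratory chain and of ATP synthase. Its rRNAs come from mitochondrial DNA, whereas every one of its proteins is encoded in the nucleus, made in the cytosol and imported. Some of these proteins have counterparts in the bacterial ribosome and others arose with mitochondria. Heart muscle, which lives by oxidative phosphorylation, is dense with mitochondria.

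The deposited values are MAS5 signals, an intensity on a linear scale that summarises the probe pairs of a probe set and that the authors scaled to a common level on each array. All 76 members lay above the filter on low signals, a mean log2 signal of 5.44 or a signal of 43.5, which 22519 of 45037 probe sets and 11189 genes passed. Their mean signals ranged from 178 to 4077 with a median of 726, so no member was near the limit, although the signals of different probe sets cannot be ranked as levels of different mRNAs. Changes were tested with limma on log2 signal, and a member is called changed at an adjusted p (Benjamini-Hochberg over the 22519 probe sets) under 0.05. The number of arrays limits the precision.

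Ilk, which checks the labels, had signals of 8799 ± 682 (SD, n = 3) in ILKR211A Tg, 3515 ± 434 (SD, n = 3) in ILKS343D Tg and 601 ± 39.0 (SD, n = 6) in WT hearts. The 7 cardiomyocyte markers (Myh6, Actc1, Tnni3, Tnnt2, Myl2, Ryr2 and Pln) were all above the filter, with summed signals from 71688 to 78956 in ILKR211A Tg, from 66232 to 73359 in ILKS343D Tg and from 68832 to 82034 in WT hearts. Atrial markers varied far more within each group, with summed signals from 2608 to 20084, from 1835 to 20843 and from 2541 to 15898 in the same order. No marker of a cardiac, vascular, blood or immune cell type on the lists used was called in any comparison. The mean log2 signals of the skeletal muscle markers and of the 1 adipocyte marker on the array were below the filter. In single hearts the adipocyte marker ran from 19.9 to 212 in ILKR211A Tg, from 15.5 to 71.1 in ILKS343D Tg and from 14.4 to 51.2 in WT. Replicate 1 of the first control set is labelled male and the other 11 hearts female, but its signal of the X-inactivation transcript Xist was 718, within the 703 to 864 of the others. Its signal of the Y-linked gene Eif2s3y was 4.47, within the 0.64 to 8.17 of the others. Neither gene set this heart apart from those labelled female.

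The promoters of the members were searched for common motifs. For 67 of the 76 a RefSeq promoter of 300 bases (250 before and 50 after the start, build GRCm38.p6) could be read. Their letters were searched on both strands for the motifs of 3 factors known to act on genes of mitochondria and ribosomes: CCGGAAG for the ETS family, to which GABP (NRF2 in the older literature on mitochondria) belongs, the 10-base motif of NRF1 with any base allowed at 1 place, and AAGATGGC for YY1. The ETS letters were found in 35.8% of the member promoters (24 of 67), against 18.0% of the promoters of genes tested on the array, 51.4% of those of the cytosolic ribosomal proteins (19 of 37) and 9.12% of all promoters in the table. For NRF1 the shares were 17.9% (12 of 67), 10.6%, 8.11% and 4.78% in the same order, and for YY1 17.9% (12 of 67), 4.84%, 5.41% and 2.88%. At least 1 of the 3 was found in 40 of the 67 member promoters. The heat shock element in its 13-base form, the motif of HSF1, was found in 0 of the 67, against 0.409% of the promoters of tested genes, a share too low for an absence in 67 to be read. These are matches of letters, not binding sites. Median GC content was 58.3% in member promoters and 61% in those of tested genes.

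The 100 bases before the start are printed for the 6 named members that hold ETS or NRF1 letters there, with the match in capitals, and for Mrps6 and Mrpl49, which have the smallest p in the comparison with ILKR211A Tg and hold none of the letters in this stretch.
Mrpl3 (ETS, chr9:105053168-105053267, plus strand): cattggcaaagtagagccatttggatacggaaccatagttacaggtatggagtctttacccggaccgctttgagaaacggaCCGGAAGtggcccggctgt
Mrps22 (ETS, chr9:98601680-98601779, minus strand): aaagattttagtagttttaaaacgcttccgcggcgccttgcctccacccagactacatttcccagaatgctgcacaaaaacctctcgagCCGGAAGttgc
Mrps27 (ETS on the other strand, chr13:99344686-99344785, plus strand): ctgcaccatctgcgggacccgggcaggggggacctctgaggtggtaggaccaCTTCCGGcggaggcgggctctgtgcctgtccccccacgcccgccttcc
Mrpl17 (NRF1, chr7:105811088-105811187, minus strand): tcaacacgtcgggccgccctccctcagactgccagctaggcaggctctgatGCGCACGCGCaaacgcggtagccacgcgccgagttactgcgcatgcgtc
Mrpl32 (NRF1, chr13:14613038-14613137, minus strand): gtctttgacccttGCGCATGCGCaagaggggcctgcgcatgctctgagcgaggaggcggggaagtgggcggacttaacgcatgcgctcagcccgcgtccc
Mrpl45 (NRF1, chr11:97315616-97315715, plus strand): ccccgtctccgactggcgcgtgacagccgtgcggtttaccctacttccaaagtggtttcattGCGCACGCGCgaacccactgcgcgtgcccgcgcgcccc
Mrps6 (no match, chr16:92058236-92058335, plus strand): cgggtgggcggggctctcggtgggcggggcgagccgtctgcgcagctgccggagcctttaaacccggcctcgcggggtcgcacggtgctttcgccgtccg
Mrpl49 (no match, chr19:6057756-6057855, minus strand): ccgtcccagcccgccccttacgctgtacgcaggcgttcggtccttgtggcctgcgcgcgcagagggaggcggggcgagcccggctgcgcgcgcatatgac

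In ILKR211A Tg hearts no mitochondrial ribosomal protein gene was called against WT, where 0.206% of all tested genes were. At an unadjusted p under 0.05, 2 members were higher, Mrps6 and Mrpl49, and 4 were lower, Mrps9, Mrps22, Mrpl28 and Mrpl47, against 3.47% of tested genes higher and 4.05% lower. Over all tested genes 23 were called at the adjusted threshold, and the smallest adjusted p of a member was 0.286 from limma. The log2 differences of the members ran from -0.29 to 0.28 with a median of -0.0074, beside -0.0014 over all tested genes, and 34 of the 76 were above 0. With arrays centred on their median the members' median was 0.028 with 51 above 0, but over all tested probe sets this scaling moved the median as well, from 0.00081 to 0.036. A lower signal in bulk tissue can come from fewer cells of a type or from less RNA per cell, which cannot be told apart here.

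The 95% interval of the difference lay within 1.5-fold in either direction for 75 of the 76 members, within 2-fold for all 76 and within 1.3-fold for 63. The exception at 1.5-fold was Mrpl52, whose standard error of 0.26 was the largest of the members, against a median of 0.083.

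**Figure D1:**
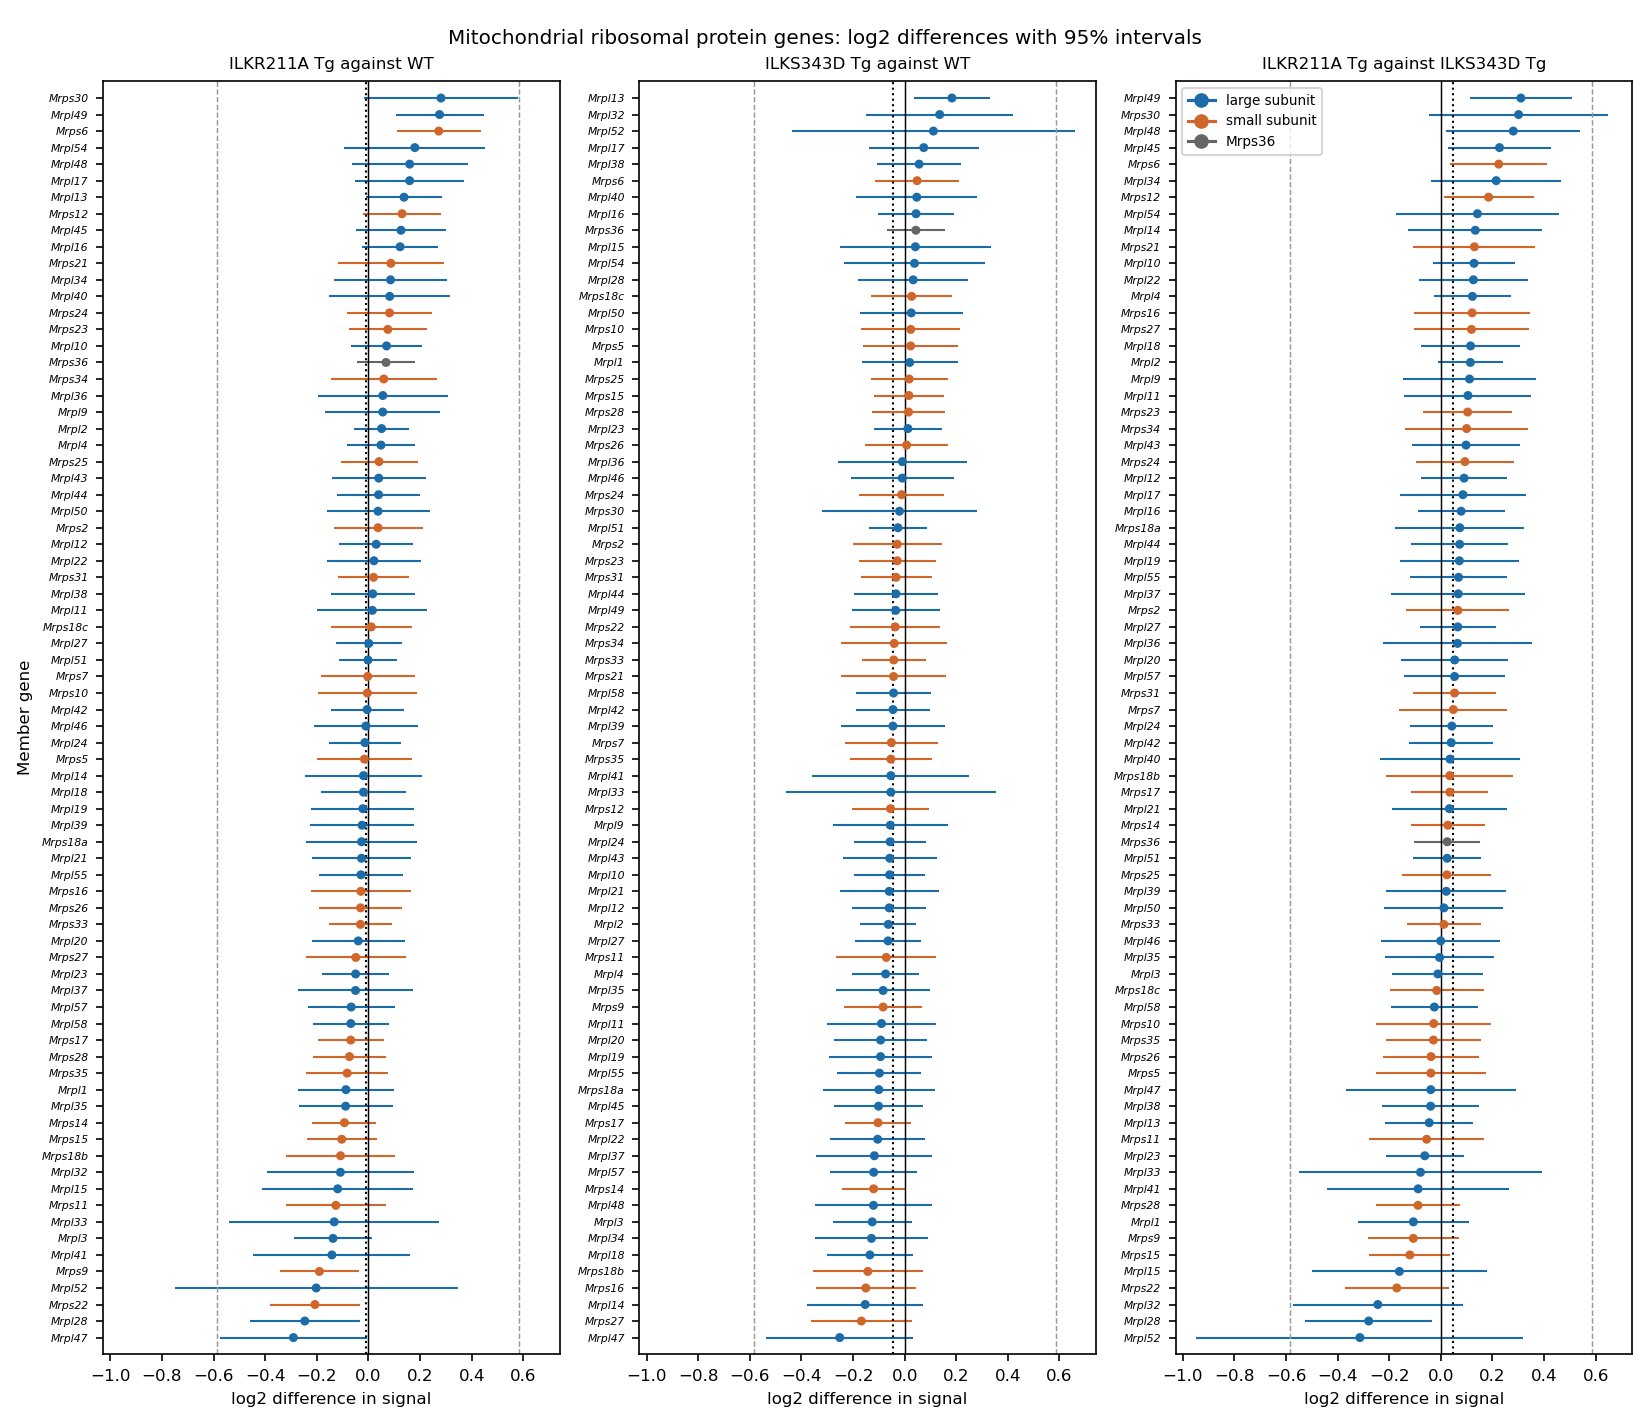
Log2 difference in signal (x axis) of each of the 76 member genes (y axis, ordered within each panel) for ILKR211A Tg against WT, ILKS343D Tg against WT and ILKR211A Tg against ILKS343D Tg. Points are limma estimates and lines their 95% intervals, the dashed lines mark 1.5-fold and the dotted line the median of the members; all but 1, 1 and 2 intervals lie between the dashed lines.

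Mrps6, a protein of the small subunit with a bacterial counterpart, had the smallest p. Its signals were 817, 776 and 791 in the ILKR211A Tg hearts, 681, 738 and 625 in the ILKS343D Tg hearts, and from 593 to 717 in WT hearts with a median of 674. Each ILKR211A Tg heart lay above each of the other 9, while ILKS343D Tg and WT hearts overlapped. The log2 difference from WT was 0.27 with a standard error of 0.076 (adjusted p = 0.286 from limma). The exact permutation test over 3 and 6 hearts gave a two-sided, unadjusted p of 0.0238, the smallest it can give. Any gene whose groups do not overlap gets this value, so it only restates the lack of overlap. On a second probe set of Mrps6 the difference was 0.31 (limma, adjusted p = 0.158). The suffix of the brighter one (_s_at) marks probes that transcripts of different genes may share, and in RefSeq Mrps6 overlaps Slc5a3, the myo-inositol cotransporter. The log2 difference of Slc5a3 was 0.32 (adjusted p = 0.624 from limma), and its part in the signal of Mrps6 was not tested.

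Mrpl49, a mitochondria-specific protein of the large subunit, had signals of 300, 324 and 351 in ILKR211A Tg hearts. They were 256, 263 and 266 in ILKS343D Tg hearts and from 245 to 292 in WT hearts, with a median of 267. The ILKR211A Tg hearts again lay above all others, by a narrow margin over the highest WT heart. The log2 difference from WT was 0.28 with a standard error of 0.080 (adjusted p = 0.309 from limma), and that of its other tested probe set was 0.14 (adjusted p = 0.908). Mrpl49 overlaps Syvn1 in RefSeq, and both Mrpl49 probe sets carry the suffix _a_at, for probes shared by several transcripts of a gene.

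Mrps30, of the large subunit, and Mrpl13, which has a bacterial counterpart, complete the 4 smallest p in the upward direction. Mrps30 had signals of 456, 409 and 312 in ILKR211A Tg hearts and from 267 to 361 in WT hearts with a median of 323. One ILKR211A Tg heart lay inside the WT range, and the log2 difference was 0.28 (limma, adjusted p = 0.690). Mrpl13 had signals of 1093, 1040 and 1066 in ILKR211A Tg hearts against 853 to 1039 in WT hearts with a median of 985. The groups did not overlap, but the highest WT heart was within 2 units of the lowest ILKR211A Tg heart, and the log2 difference was 0.14 (adjusted p = 0.691 from limma).

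The 4 members with the smallest p in the downward direction included Mrps9 and Mrps22 of the small subunit. Mrps9, a protein of the small subunit with a bacterial counterpart, had signals of 495, 554 and 539 in ILKR211A Tg and from 555 to 682 in WT hearts with a median of 599. The groups did not overlap, by a narrow margin (log2 difference -0.19, adjusted p = 0.541 from limma, exact permutation p = 0.0238, two-sided). The second brightest probe set of Mrps9 gave 0.18 in the opposite direction (adjusted p = 0.693 from limma). Mrps22, a mitochondria-specific protein of the small subunit, had signals of 297, 293 and 316 against 311 to 389 in WT hearts with a median of 349, and the groups overlapped in 1 heart on each side (log2 difference -0.21, adjusted p = 0.566 from limma).

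Mrpl28 and Mrpl47, both of the large subunit with bacterial counterparts, differed within WT. Mrpl28 had signals of 1049, 1000.0 and 1055 in ILKR211A Tg hearts, from 1301 to 1445 in the first control set and from 1035 to 1198 in the second. Mrpl47 had signals of 324, 448 and 340 in ILKR211A Tg hearts, from 434 to 548 in the first set and from 372 to 441 in the second. For both genes the ILKR211A Tg hearts overlapped the second control set, and for Mrpl28 they did not overlap the first. The log2 differences from all WT hearts were -0.25 for Mrpl28 and -0.29 for Mrpl47 (adjusted p = 0.593 and 0.653 from limma). Mrpl28 was read from an _x_at probe set, whose probes may bind other transcripts as well. The difference was -0.23 on its second brightest probe set, also of that kind, and -0.021 on the remaining one.

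**Figure D2:**
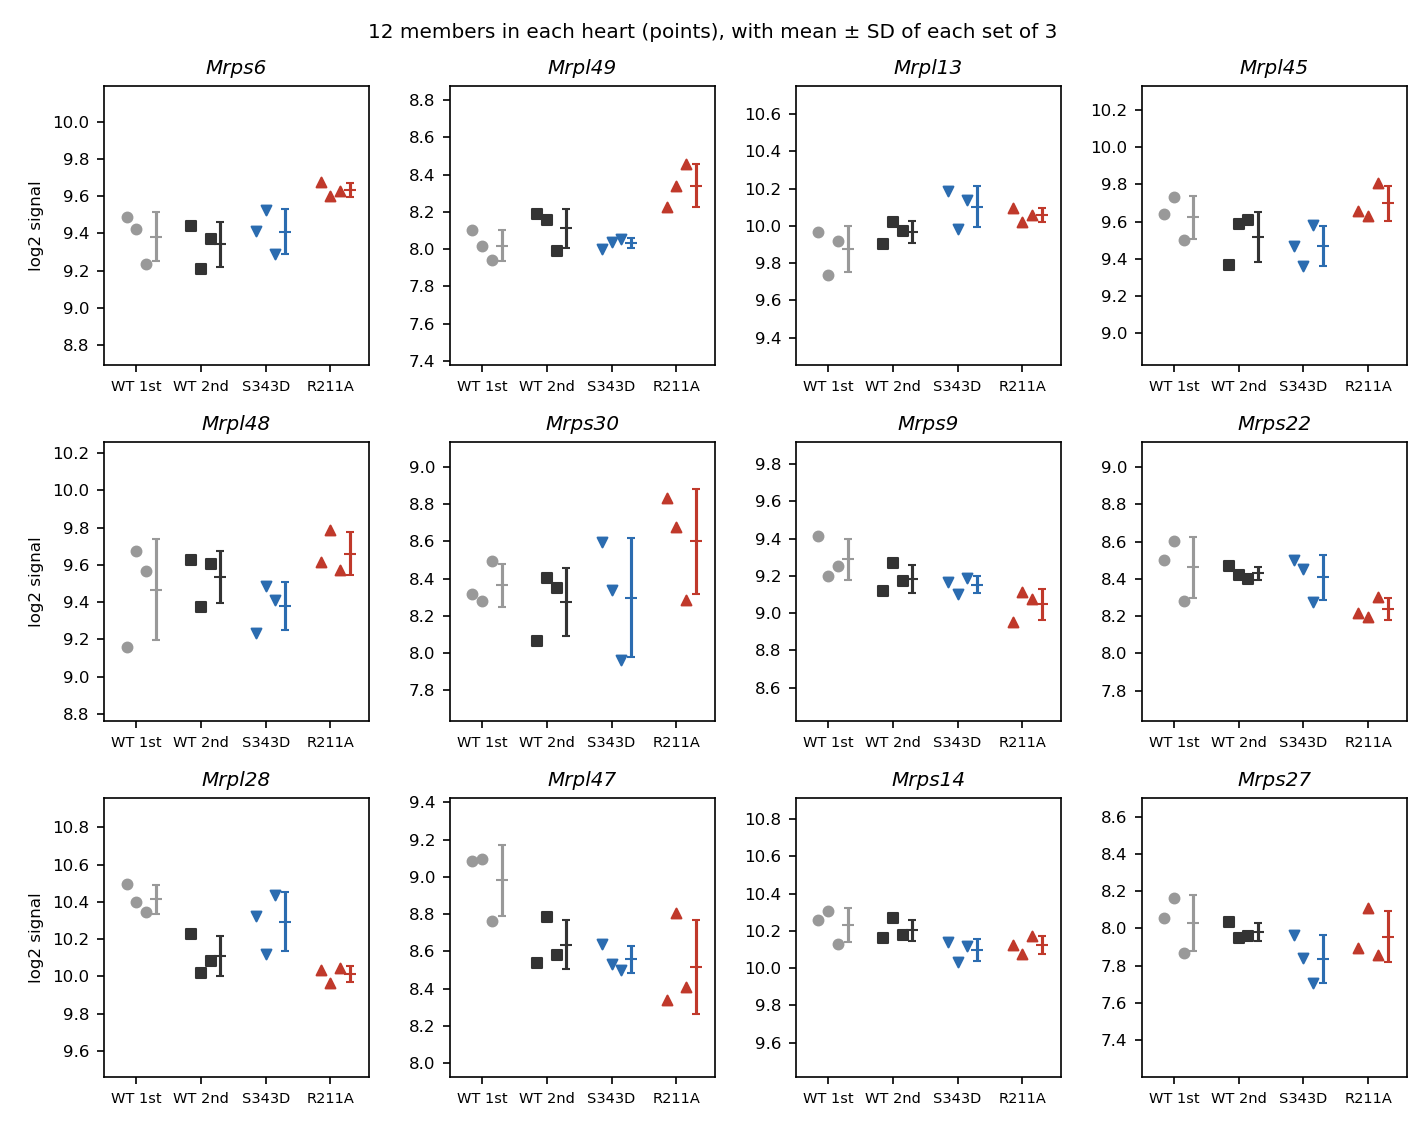
Log2 signal (y axis) of 12 named members in each heart, with the first and second control set, ILKS343D Tg and ILKR211A Tg hearts along the x axis. Points are hearts and bars the mean ± SD of 3; all panels span 1.5 log2 units, and for Mrps6 and Mrpl49 the 3 ILKR211A Tg hearts lie above the other 9.

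In ILKR211A Tg against WT 3 of the 76 members were higher in every transgenic heart than in every WT heart (Mrps6, Mrpl49 and Mrpl13) and 2 were lower (Mrps9 and Mrps15), where 2.2% and 1.98% of all tested genes were. Mrps15, a protein of the small subunit, had signals of 405, 434.8 and 430 in ILKR211A Tg hearts and from 435.3 to 485 in WT hearts with a median of 454 (log2 difference -0.10). Its groups were thus nearly tied at their nearest hearts.

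In ILKS343D Tg hearts no member was called against WT either, where 0.00894% of all tested genes were, which is Ilk alone. The smallest adjusted p was 0.995 from limma. At an unadjusted p under 0.05, 1 member was higher, Mrpl13, and 0 were lower, against 1.98% and 1.81% of tested genes. The median log2 difference was -0.045, beside -0.0008 over all tested genes, and 22 of the 76 were above 0; the median stayed below 0 in both other scalings, at -0.079 with arrays centred on their median, where that of all tested probe sets was -0.031, and at -0.038 after quantile normalization. No member had groups that did not overlap, where 1.06% of tested genes were higher and 0.929% lower without overlap. The 95% interval lay within 1.5-fold for 75 members and within 1.3-fold for 72.

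Mrpl13 had signals of 1166, 1010 and 1129 in ILKS343D Tg hearts against 853 to 1039 in WT hearts with a median of 985. Of the 3 transgenic hearts 2 lay above all WT hearts (limma estimate 0.18 on the log2 scale with a standard error of 0.069, adjusted p = 0.995). Mrpl13 is therefore the member with the smallest upward p in ILKS343D Tg hearts and among the 4 smallest in ILKR211A Tg hearts, 2 comparisons that share their WT hearts. On its other tested probe sets the difference was 0.11 and 0.093 in ILKS343D Tg hearts and -0.017 and -0.15 in ILKR211A Tg hearts.

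The other 3 members with the smallest p in the upward direction stayed close to WT. Mrpl32, which in yeast and mouse is matured by the m-AAA protease before it joins the large subunit, had a log2 difference of 0.14, Mrpl17, also of the large subunit, 0.074, and Mrps36 0.044. In the downward direction stood Mrps14 (-0.12) and Mrps27 (-0.17) of the small subunit, the latter a protein with pentatricopeptide repeats, and Mrpl3 (-0.13) and Mrpl47 (-0.25) of the large. Mrpl47 had signals of 399, 371 and 362 in ILKS343D Tg hearts, which overlap the second control set but lie below every heart of the first. Mrps14 had signals of 1130, 1046 and 1112 in ILKS343D Tg hearts and from 1122 to 1265 in WT hearts with a median of 1191, overlapping through 1 ILKS343D Tg heart.

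The direct comparison of the lines does not use the WT hearts for its estimate. Here too no member was called, where 0.152% of tested genes were, and the smallest adjusted p was 0.345 from limma. At an unadjusted p under 0.05, 5 members were higher in ILKR211A Tg hearts (Mrpl49, Mrps6, Mrpl45, Mrpl48 and Mrps12) and 1 was lower (Mrpl28), against 3.91% and 3.93% of tested genes. The median log2 difference was 0.045, beside -0.004 over all tested genes, with 51 of the 76 above 0. It was 0.11 with centred arrays, which also moved the median of all tested probe sets from -0.0047 to 0.064, and 0.035 after quantile normalization. Without ILKR211A Tg replicate 2, the heart of that line with the highest signals of these genes, it was 0.0017.

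Mrpl45, a protein that anchors the ribosome at the inner membrane near the exit of the nascent chain, had signals of 807, 793 and 896 in ILKR211A Tg and 709, 659 and 765 in ILKS343D Tg hearts. Mrpl48, a mitochondria-specific protein of the large subunit, had signals of 785, 885 and 761 against 603, 718 and 682. Neither gene overlapped between the lines, yet in both the WT hearts spanned the gap, from 660 to 849 for Mrpl45 and from 572 to 816 for Mrpl48. The log2 differences between the lines were 0.23 and 0.28 (adjusted p = 0.540 and 0.567 from limma).

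Mrpl49 and Mrps6 differed between the lines by 0.31 and 0.22 on the log2 scale (adjusted p = 0.345 and 0.510 from limma). In the other direction stood Mrpl28 (-0.28), Mrps22 (-0.17), Mrps15 (-0.12) and Mrpl32 (-0.24). Mrpl32 had signals of 833, 623 and 934 in ILKR211A Tg and 1059, 884 and 860 in ILKS343D Tg hearts, an overlapping pair of groups with the wide spread that this gene also has in WT, from 664 to 985. In all, 6 members were higher and 2 lower without overlap between the lines, against 7.32% and 7.22% of tested genes, and the smallest exact permutation p for 3 against 3 hearts is 0.1. The 95% interval lay within 1.5-fold for 74 members and within 1.3-fold for 62.

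The medians were small in both subunits. Against WT the median log2 difference in ILKR211A Tg hearts was -0.005 for the large and -0.022 for the small subunit, and in ILKS343D Tg hearts -0.055 and -0.038. Between the lines it was 0.065 for the large and 0.031 for the small subunit. The 45 members with a bacterial counterpart had medians of -0.016 in ILKR211A Tg and -0.056 in ILKS343D Tg hearts, and the 30 mitochondria-specific ones -0.0033 and -0.038. No class held a called member, and no test of the classes was made.

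Within WT, most members were higher in the first control set. It had a higher signal than the second for 57 of the 76 members, with a median log2 difference of 0.076 beside 0.011 over all tested genes. No member was called, where 0.0179% of tested genes were, but 9 had an unadjusted p under 0.05, all of them higher in the first set, against 4.18% of tested genes higher and 3.07% lower: Mrpl3, Mrpl16, Mrpl17, Mrpl28, Mrpl33, Mrpl35, Mrpl47, Mrps16 and Mrps34. The largest difference was 0.44 for Mrpl33, with signals of 672, 484 and 326 in the first set and 371, 351 and 324 in the second. Mrpl16, Mrpl33, Mrpl34, Mrpl35, Mrpl52, Mrps12 and Mrps16 are named after their values were seen.

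The choice of control set moved the medians of both comparisons. Against the second set alone the median in ILKR211A Tg hearts was 0.033 with 49 of 76 above 0, and against the first set alone it was -0.050. In ILKS343D Tg hearts it was -0.069 against the first set alone, with 14 of 76 above 0, and -0.016 against the second. Each line can also be set against the WT hearts in its own range of heart numbers. The difference for ILKR211A Tg minus that for ILKS343D Tg then had a median of 0.11. It was above 0 for 61 of 76 members, with a median of 0.0088 over all tested genes. For each gene this adds the gap of the first over the second control set (median 0.076) to that between the lines (median 0.045). A value above 0 is therefore not by itself a higher signal in ILKR211A Tg hearts. No member was called for this difference, where 0.00894% of tested genes were. At an unadjusted p under 0.05 (limma) stood 8 members, all above 0, against 3.67% of tested genes above and 3.21% below 0. The largest of them was 0.43 for Mrpl34 (adjusted p = 0.593 from limma). The range of heart numbers goes with the transgenic line, so a batch and a line cannot be told apart in the direct comparison of the lines.

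Many members moved together from heart to heart. Averaged over the 76 members, the deviation of log2 signal from each gene's mean over 12 hearts was 0.089, 0.073 and -0.0087 in the first control set and -0.042, -0.00051 and -0.046 in the second. It was -0.035, 0.066 and -0.0092 in ILKR211A Tg and -0.023, -0.049 and -0.016 in ILKS343D Tg hearts. The first set and ILKR211A Tg each hold hearts from both sides of the mean, and ILKS343D Tg hearts overlapped the second set. In the heart with the highest average, replicate 1 of the first set, 60 of the 76 members were above their own mean, and in that with the lowest, ILKS343D Tg replicate 2, 17 were. The same averages ran from -0.087 to 0.12 in oxidative phosphorylation subunit genes and from -0.065 to 0.088 in cytosolic ribosomal protein genes. These ranges were wider than that of the members, so such movement was not particular to them.

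**Figure D3:**
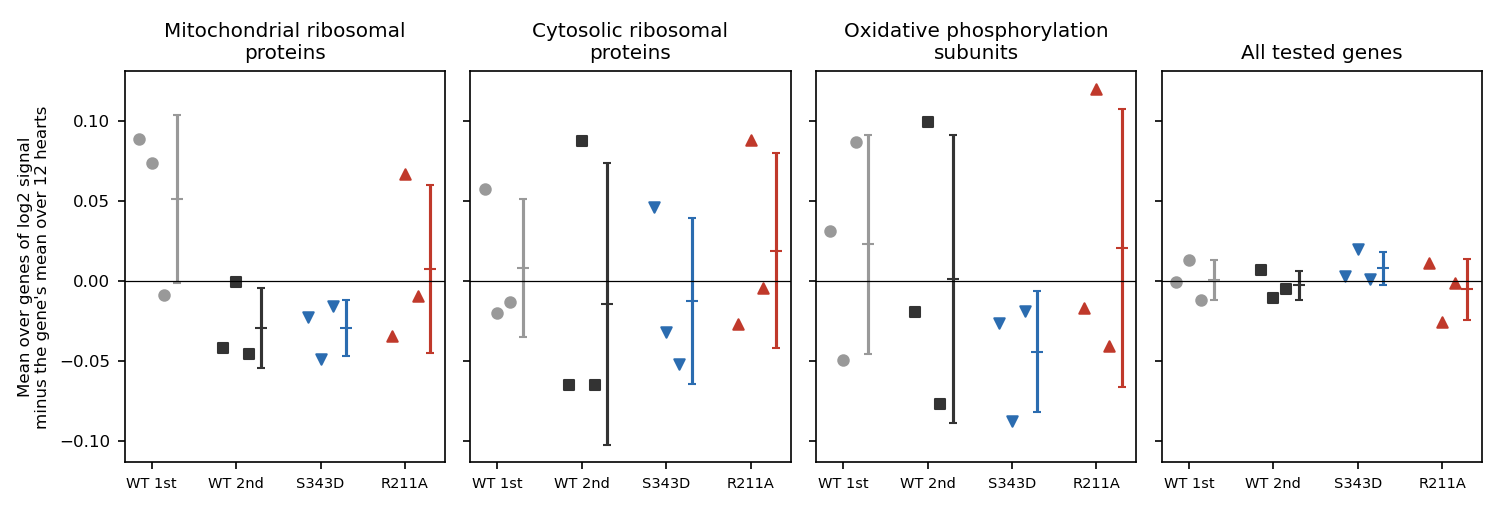
Mean over genes of the log2 signal minus each gene's mean over 12 hearts (y axis) in every heart, for the 76 members, 43 cytosolic ribosomal protein genes, 78 oxidative phosphorylation subunit genes and all 11189 tested genes. Points are hearts, in the order of their replicate numbers within the first and second control set, ILKS343D Tg and ILKR211A Tg, and bars are the mean ± SD of 3; the member means run from -0.049 to 0.089.

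Across the 12 arrays, pairs of members had a median correlation of 0.19 (2850 pairs), and 0.18 after group means were removed, beside 0.0006 over pairs of all tested genes. These are descriptions over arrays that share their scaling. Mrpl21 and Mrps34 had the highest mean correlation with the other members, 0.37 and 0.36. The lowest were -0.33 for Mrpl32 and -0.21 for Mrpl40, and 11 of the 76 had a mean below 0. The median SD of log2 signal over the 12 arrays was 0.12 in the members, beside 0.16 over all tested genes. The tested genes include dimmer ones, down to the filter, and genes of like signal were not compared, so the lower SD is not shown to be particular to the members.

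**Figure D4:**
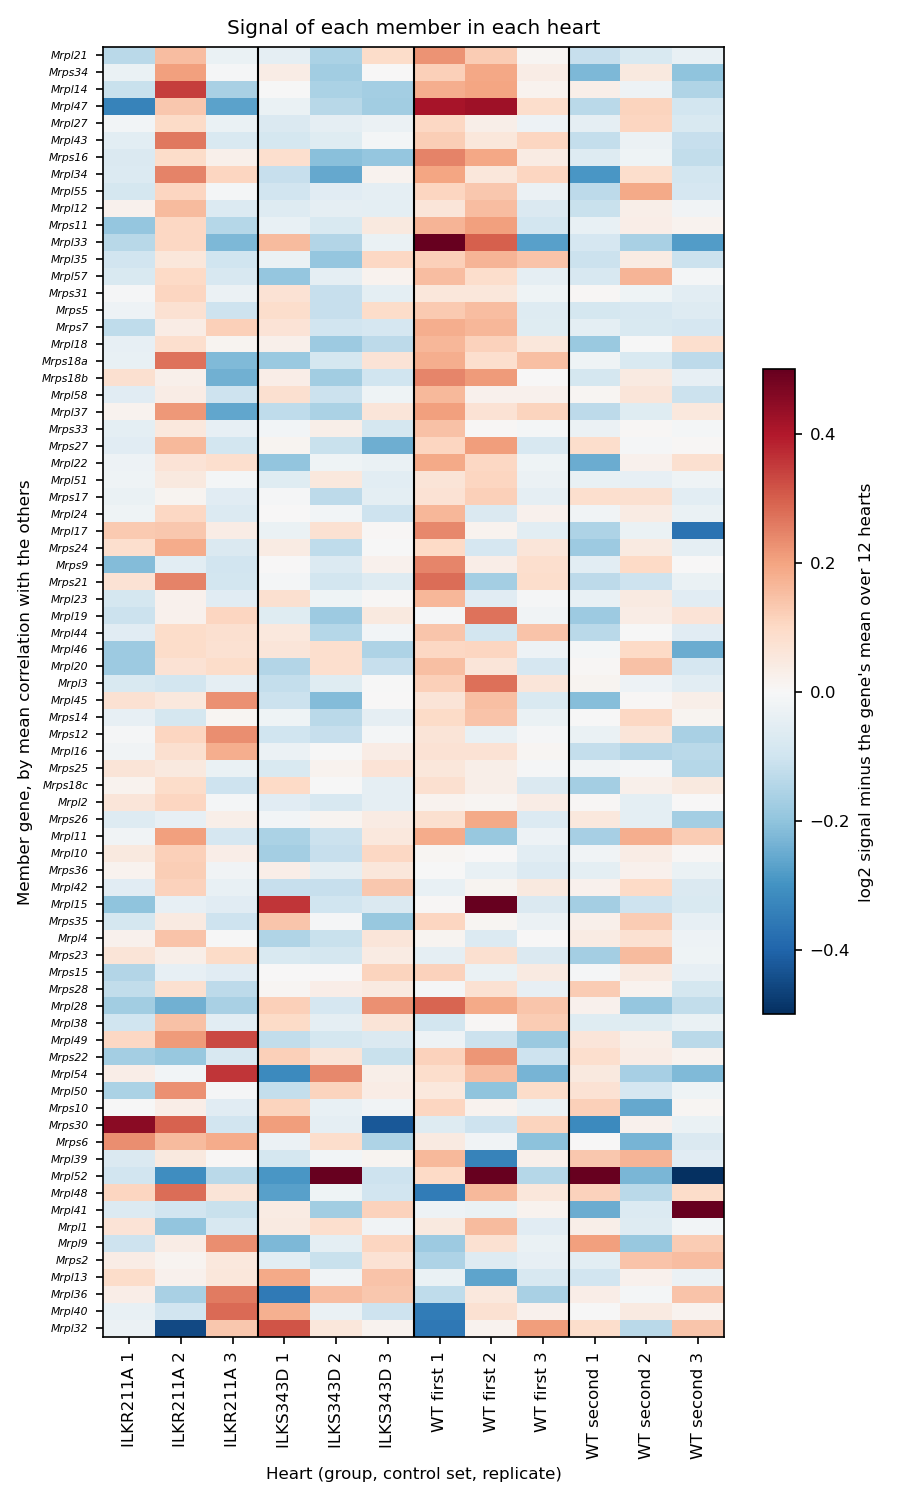
Log2 signal of each member minus its mean over 12 hearts (colour, values beyond 0.5 shown at the end of the scale) for 76 genes (rows, from the highest to the lowest mean correlation with the other members) and 12 hearts (columns, by group). The upper rows are mostly above their mean in replicates 1 and 2 of the first control set and in ILKR211A Tg replicate 2, and Mrpl32 and Mrpl40 at the foot are not.

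Oxidative phosphorylation subunits and cytosolic ribosomal proteins, the groups most like the members in function, gave medians of the same order. In ILKR211A Tg hearts the median difference from WT was 0.0011 for 78 oxidative phosphorylation genes and 0.029 for 43 cytosolic ribosomal protein genes. In ILKS343D Tg hearts it was -0.059 and -0.022, and between the lines 0.075 and 0.042. No gene of either group was called in the 3 comparisons. The first control set exceeded the second by a median of 0.025 and 0.022 in these groups and by 0.076 in the members. It did so by 0.080 in mitochondrial translation factors, 0.11 in 4 further mitoribosome subunits outside the naming rule and 0.17 in genes for transcription and maintenance of mitochondrial DNA. These gaps were not tested against each other.

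The rest of the mitochondrial translation pathway held 1 called gene. Of 11 tested genes for transcription and maintenance of mitochondrial DNA, Tfb2m, a factor that starts transcription of that DNA, was lower in ILKR211A Tg hearts, at 687 ± 82.4 (SD, n = 3) against 1029 ± 81.5 (SD, n = 6) in WT (log2 difference -0.59, adjusted p = 0.0033 from limma). Its difference between the lines was -0.42 (adjusted p = 0.124 from limma). With the second control set alone the adjusted p against WT was 0.0594 and with centred arrays 0.0789.

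None of 13 translation factors, 15 mitochondrial aminoacyl-tRNA synthetases, 21 assembly and rRNA modification factors, 9 nuclear regulators and 4 further ribosome subunits outside the naming rule was called in the 3 comparisons. The smallest p against WT in ILKR211A Tg hearts belonged to Gfm1, the elongation factor that moves the ribosome along the mRNA (log2 difference 0.17), Ppargc1a, a coactivator of mitochondrial biogenesis (-0.21), Gtpbp10, a GTPase of large subunit assembly (-0.26), Hars2, which charges histidine tRNA (-0.16), and Chchd1, a small subunit protein (-0.064). In ILKS343D Tg hearts they belonged to Oxa1l, which inserts new proteins into the inner membrane (-0.27), Tars2, which charges threonine tRNA (-0.24), Mpv17l2, an assembly factor (-0.25), the transcription factor Nrf1 (-0.20), and Gadd45gip1, a large subunit protein (-0.096). Between the lines the smallest p were those of Oxa1l (0.48), Tars2 (0.20), Dap3, a GTP-binding small subunit protein (0.16), Rpusd4, a pseudouridine synthase (-0.31), and Ppargc1a (-0.18). The adjusted p of these genes from limma was between 0.479 and 0.995.

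The choice of probe set bears on single members more than on the group. Of the 156 probe sets of the members 131 were above the filter, and none of these was called in any of the 3 comparisons, where 0.204%, 0.00444% and 0.16% of all tested probe sets were. For 35 members with several tested probe sets, 32 of 55 further probe sets had the same sign as the brightest in ILKR211A Tg against WT, 31 in ILKS343D Tg against WT and 32 between the lines. The median gap between the log2 differences of the brightest and a further probe set was 0.11, 0.082 and 0.14 in the same order, which is about the size of the differences themselves. In RefSeq 19 of the 76 members overlap another protein-coding gene.

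**Figure D5:**
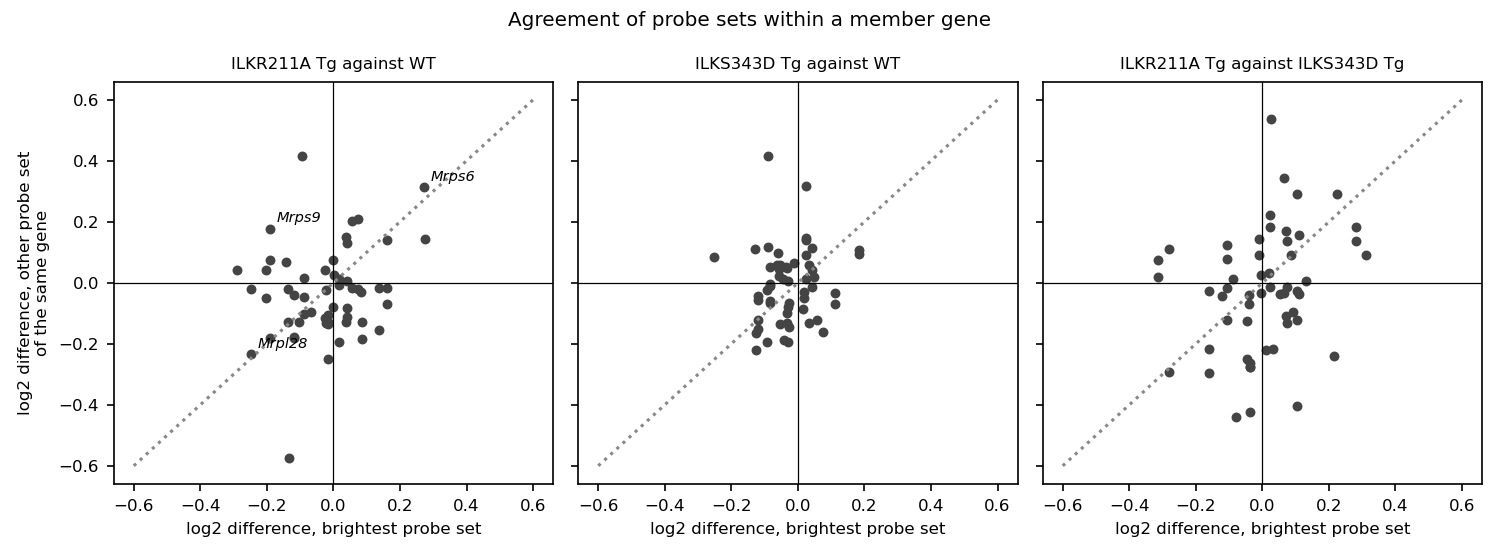
Log2 difference from the brightest probe set of a member (x axis) against that from each further tested probe set of the same gene (y axis) in the 3 comparisons, 55 points in each. The dotted line marks equality; points fall in all 4 quadrants, with Mrps6 high on both probe sets and Mrps9 of opposite sign in the first panel.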

How the data were processed

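RNA of 12 hearts was measured on 12 arrays. The deposited intensity values are signals that the authors computed with MAS5, per the labels, and with GCOS, per the methods, and scaled to a common mean on each array. No source used here gives the version or the scaling target. In the deposited values the mean signal after trimming 2% at each end was 150 on every array. After removal of 64 array controls, log2 was taken with nothing added. In the platform's annotation 34945 probe sets name a single gene, 932 name more and 9160 are unnamed. Those whose mean log2 signal reached the median over all were tested with limma 3.58.1 in R 4.3.3 (empirical Bayes with a trend, 3 genotype groups, two-sided), and with 4 groups for the control sets. Exact permutation tests covered single members. The procedure was tested on simulated data. Promoters were read from RefSeq (GRCm38.p6). RefSeq was otherwise used only for names and overlaps, since the deposited values name no build. Python 3.11.15 with matplotlib 3.10.9 served for the figures.

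The members, lists, markers and tests were chosen with earlier results of these data known. Named members are those called, the 4 with the smallest p in each direction of each comparison, those with groups that do not overlap from WT at p under 0.01, the 2 most and 2 least correlated with the rest, and, in each list, the genes called or with the smallest p. Alternatives covered scaling, offset, filters, prior variance, array weights, arrays in the fit, blocks, each control set alone, the choice of probe set and each heart left out. Protein sequences were not used here.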

Additional observations from a re-analysis of the deposited data

Results flagged for a closer look

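One of 20 named members had a WT heart far from the other 5. Mrpl40, a mitochondria-specific protein of the large subunit, had a signal of 280 in replicate 1 of the first control set, against 356 to 376 in the others, and this gap took up 0.819 of the range of the 6 hearts on the log2 scale, above the 95% limit of Dixon's test for 6 hearts. Chance alone gives about 1 such heart in 20 groups, and over all 76 members 6 had one.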

How the results depend on the processing

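No member was called in any of the 3 comparisons under 13 alternatives or with any of the 12 hearts left out, so each count stayed at 0, and the smallest adjusted p of a member over these was 0.138 (ILKR211A Tg against the first control set, limma). Correlations of deviations between hearts with the same replicate number ran from -0.20 to 0.21, with 5 of 18 over 0.1. Between ILKS343D Tg and first-set hearts of the same number they were 0.071, 0.21 and 0.17. For ILKR211A Tg and second-set hearts they were 0.17, 0.18 and 0.12. Different numbers within a range of heart numbers gave at most 0.0016, and same numbers across the ranges gave negative values. Replicate numbers thus went with likeness within a range. Deviations sum to 0 within each set of 3 hearts, so likeness at the same number by itself lowers the values at different numbers. No fit with these pairs was made, and the p values from limma and the permutation tests treat the hearts as unpaired. With the replicate number as a block 0 members were called. This block is balanced over the genotypes, so the medians of -0.0074, -0.045 and 0.045 could not move. It also joins hearts of both ranges, so it does not remove likeness within a range. The median between the lines moved from 0.045 to 0.11 with arrays centred on their median, which moved that of all tested probe sets from -0.0047 to 0.064, and to 0.11 with the range of heart numbers as a block, where that of all tested probe sets was -0.011. With that block each line is compared with the WT hearts of its own range. Its median between the lines therefore repeats the one given above for that contrast. With 1 heart left out the medians ran from -0.052 to 0.024 for ILKR211A Tg against WT, from -0.063 to -0.027 for ILKS343D Tg against WT and from 0.0017 to 0.071 between the lines. The first changed sign without ILKR211A Tg replicate 1 (0.024) or 3 (0.0033) and without first control set replicate 1 (0.011) or 2 (0.005). Of 24 named member differences, those of 2 reversed. Mrpl28 between the lines went to 0.025 with the range of heart numbers as a block. Mrpl17 in ILKS343D Tg against WT went to -0.053 with that block or with the first control set alone, which give the same estimate by construction. As a mean over all its probe sets Mrpl17 went to -0.055. The causes were not tested. Tfb2m passed the threshold with each heart left out (adjusted p from 0.0031 to 0.037, limma). All members were well above the filter, and the 3 hearts in each transgenic group limit the precision.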
